A study of Mus musculus with 6 samples.

Results

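The genes of the DNA replication machinery were examined in the livers of mice on a restricted-carbohydrate diet and of mice on a control diet. The members were taken by gene name from a written set of 49 names, which stand for 47 genes because Cdc45 and Orc1 each have an older name. They are represented by 55 of the 39429 probes on the array, with 2 probes for 8 of the genes, and they fall into 6 roles: licensing of origins, origin firing, polymerases, the clamp with its partners, nucleotide supply, and chromatin and methylation maintenance. All 47 genes were on the array, 45 of them could be tested among 19616 features, and 42 were well above background on all 6 arrays.

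One single-colour expression array was run per mouse, for 3 mice on the restricted diet and 3 on the control diet. All were male C57BL/6 mice, 5 weeks old when they were assigned to a diet, and all of them, the controls included, received by hydrodynamic tail vein injection a transposon vector carrying HrasG12V, shp53 and GFP4, which gives liver tumours. RNA came from liver outside the tumours, so the groups differ in diet and share the oncogene. The restricted diet is named in the sample labels as moderate restriction of carbohydrate, whereas the series title adds a mixture of phytochemicals that mimic calorie restriction, and the control diet was a LabDiet chow. The sample labels give 1 week of feeding before injection and 5 weeks of diet supplementation, while the series text gives 2 and 4 weeks. Mice of either diet are titled Supplemented, and what was added to the control diet is not given in the sources used here. The labels do not say which cells took up the vector or how large a share of the sampled tissue carried it, and no group without the vector was analysed here.

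Before a cell divides, origin recognition proteins, Cdc6 and Cdt1 load the ring-shaped MCM complex onto DNA, which licenses the origin. Kinases then recruit Cdc45 and the GINS complex, the ring becomes an active helicase, and polymerases copy both strands on a sliding clamp that a clamp loader places at primed sites. Most hepatocytes of an adult liver are quiescent and express little of this machinery, which is induced when cells enter the cycle, in large part through E2F transcription factors.

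Licensing was the role with the most genes called lower in the restricted diet, and the promoters of 4 of its genes are shown here because they have the smallest p-values among the licensing, firing and nucleotide genes whose window holds an E2F word. The sequences are RefSeq's, build GRCm38.p6, from 250 bases before to 50 bases after the annotated start, and run 5′ to 3′ on the strand of the gene. Capitals mark the words TTTCCCGC, TTTCGCGC, TTTGCCGC or TTTGGCGC on either strand, so a word on the opposite strand appears as its reverse complement. The Mcm3 window is chr1:20820263-20820562 on the minus strand, the Cdc6 window chr11:98907901-98908200 on the plus strand, the Mcm5 window chr8:75109259-75109558 on the plus strand and the Mcm6 window chr1:128359656-128359955 on the minus strand. In the Mcm5 window, and once in the Mcm6 window, 2 words on opposite strands overlap and form 1 run of capitals.
Mcm3: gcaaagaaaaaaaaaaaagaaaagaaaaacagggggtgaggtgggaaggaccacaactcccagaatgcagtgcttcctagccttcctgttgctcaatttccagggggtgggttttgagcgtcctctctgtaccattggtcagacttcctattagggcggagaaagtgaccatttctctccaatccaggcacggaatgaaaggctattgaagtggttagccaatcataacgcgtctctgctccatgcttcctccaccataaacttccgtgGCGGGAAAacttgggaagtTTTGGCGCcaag
Cdc6: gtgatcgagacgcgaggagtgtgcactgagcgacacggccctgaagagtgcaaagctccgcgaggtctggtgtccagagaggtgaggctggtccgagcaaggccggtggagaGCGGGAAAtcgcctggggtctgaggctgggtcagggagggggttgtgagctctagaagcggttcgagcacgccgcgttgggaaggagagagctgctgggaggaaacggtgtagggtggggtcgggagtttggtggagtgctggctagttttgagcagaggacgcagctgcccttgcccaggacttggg
Mcm5: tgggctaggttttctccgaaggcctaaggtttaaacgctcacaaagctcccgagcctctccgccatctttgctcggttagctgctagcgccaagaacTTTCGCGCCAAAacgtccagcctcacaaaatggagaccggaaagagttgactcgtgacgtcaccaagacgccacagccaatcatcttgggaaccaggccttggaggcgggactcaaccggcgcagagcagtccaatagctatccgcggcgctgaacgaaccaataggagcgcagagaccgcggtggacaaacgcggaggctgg
Mcm6: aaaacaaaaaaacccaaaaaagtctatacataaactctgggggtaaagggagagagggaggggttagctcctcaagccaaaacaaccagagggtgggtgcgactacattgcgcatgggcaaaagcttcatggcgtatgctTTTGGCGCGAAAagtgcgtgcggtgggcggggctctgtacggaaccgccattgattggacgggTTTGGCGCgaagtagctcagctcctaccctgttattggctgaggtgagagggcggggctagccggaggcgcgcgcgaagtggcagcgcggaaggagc

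Of the 47 members, 39 had a window in the promoter table, and 16 of these genes (41.0%) held at least 1 of the 4 words, against 704 of 27025 genes in the table (2.60%). The word occurred in 6 of 13 members called lower (46.2%), in 9 of 21 that were not called (42.9%) and in 0 of 3 that were called higher. A pentamer that is common in promoters, CCAAT, was present on either strand in 23 of the 39 members (59.0%), against 41.1% of all genes in the table. A match describes letters only, and the absence of a word says nothing about the factor.

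Each array value below is log2 of the processed signal relative to the 75th percentile of its own array, so 0 is the level of the probe at that percentile. A difference is restricted minus control on this log2 scale, and a gene was called when limma's Benjamini-Hochberg adjusted p over all 19616 features was below 0.05. Of all 19616 features 27.5% were called in one direction or the other. In the restricted livers 15 of 45 tested members were called lower (33.3%), against 12.8% of all features, and 4 were called higher (8.89%), against 14.6% of all features. The remaining 26 members were not called. All 3 restricted mice lay below all 3 controls for 22 members (48.9%, background 18.8%), and all 3 lay above for 7 (15.6%, background 26.1%). The median difference of the tested members was -0.52, while the median of all features was 0.12, so the members stood -0.65 from the whole array. Among the 42 members well above background on every array, 13 were called lower and 4 higher, with a median of -0.50. Of all 17742 features well above background on every array, 1790 were called lower and 2658 higher, with a median of 0.16.

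The counts depended on which mice were in the fit. They were 9 lower and 2 higher without control mouse 1 and likewise without control mouse 2, 10 lower and 2 higher without restricted mouse 2, and 11 lower and 2 higher without restricted mouse 3. Calls over all 19616 features moved too, from 5386 to 3687 without control mouse 1 and 3344 without control mouse 2. Without restricted mouse 2 there were 3394, and without restricted mouse 3 there were 4127. Slide 1 held the 3 control mice and restricted mouse 1, while slide 2 held restricted mice 2 and 3 alone, so the slide is partly confounded with the diet. The slide as a block and slide 1 alone therefore both set restricted mouse 1 against the controls. They gave the same differences and are not separate estimates. With the slide as a block 11 members were called lower and 0 higher (limma), and with slide 1 alone, where the lone restricted mouse is assumed to vary like the controls, 7 were called lower and 0 higher. The 7 members that kept the call in each alternative that gave them a value were Mcm3, Mcm4, Mcm5, Cdc6, Pole2, Fen1 and Uhrf1. Of these, Cdc6 and Pole2 entered the fit through the control livers alone, the side where they were higher. The filter on dim probes thus favoured a lower call for both. They gave no value when all 6 arrays had to be above background, and were called lower with no background filter. Scaling each array to its median gave 11 lower and 5 higher in place of 15 and 4. Background correction with normexp, followed by quantile normalization, made several differences over 1.5 times smaller. Uhrf1 had -1.54, Mcm5 -1.20, Mcm2 -0.79, Pold2 0.40, Rpa2 -0.30, and Cdc6 and Pole2 -0.33 each, all still called. Dbf4 (-0.35), Prim2 (-0.35) and Chaf1a (-0.38) lost the call.

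**Figure D1:**
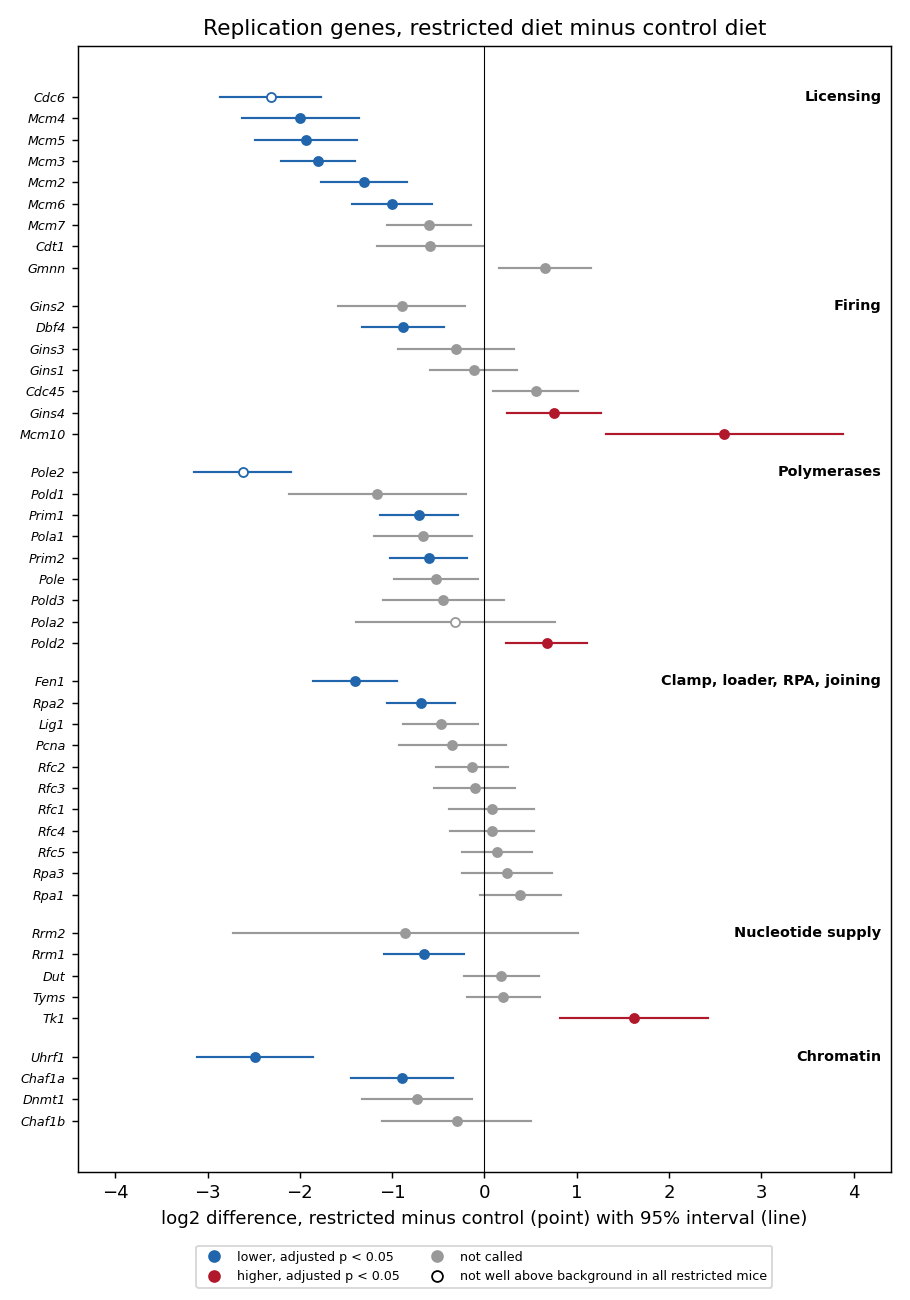
Each point is 1 tested member, placed by role (rows) and by its log2 difference, restricted minus control (horizontal axis, with the 95% interval as a line); colours separate members called lower, called higher and not called, and open points were not well above background in all restricted mice. Licensing genes measured above background in both diets reach -1.99 and the clamp loader genes lie near 0, while Mcm10 at 2.60 and Tk1 at 1.62 stand on the opposite side.

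Licensing was the role with the lowest median, -1.31 over 9 tested genes. Of these, 6 were called lower (66.7%, background 12.8%) and 0 higher (background 14.6%). The 6 subunits of the MCM ring, the core of the replicative helicase, were all lower in every restricted mouse than in any control mouse, and 5 of the 6 passed the test. Mcm4 had -1.31, -0.89 and -1.55 in restricted livers, against 0.64, 1.17 and 0.42 in control livers. The ranges lay apart, and the difference of -1.99 (SE 0.27, adjusted p = 0.00242, n = 3 each, limma) is 3.98-fold lower (probe chr16:15624372-15624431, mm9). Mcm5 had -3.02, -2.44 and -2.92 in restricted livers, against -1.02, -0.54 and -1.03 in control livers. It was 3.82-fold lower (difference -1.93, SE 0.23, adjusted p = 0.00158, limma; probe chr8:77651350-77651410, mm9). Mcm3 had -1.03, -0.88 and -1.02 in restricted livers, against 0.64, 0.91 and 0.94 in control livers, with little spread within either diet. It was 3.49-fold lower (difference -1.80, SE 0.17, adjusted p = 0.000671, limma; probe chr1:20793136-20793195, mm9), and its second probe, which overlaps the first, gave -1.95 (SE 0.17, adjusted p = 0.000516, limma).

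Smaller changes were measured for the other subunits of the ring. Mcm2 had -2.58, -2.41 and -2.87 in restricted livers, against -1.51, -1.30 and -1.13 in control livers, and was 2.47-fold lower (difference -1.31, SE 0.20, adjusted p = 0.00374, limma). Mcm6 had 0.84, 1.08 and 0.98 in restricted livers, against 1.99, 2.16 and 1.73 in control livers, a difference of -1.0 (SE 0.18, adjusted p = 0.00828, limma). Both lost the call on slide 1 alone, where the differences were -1.27 for Mcm2 (adjusted p = 0.0574, limma) and -1.13 for Mcm6 (adjusted p = 0.0859, limma). Mcm7 had 0.92, 0.59 and 1.04 in restricted livers, against 1.28, 1.50 and 1.57 in control livers. Its difference of -0.60 (SE 0.19) did not pass the test (adjusted p = 0.0569, limma). Mcm7 was called lower with quantile normalization, normexp and array weights. Within the ring the differences thus ran from -1.99 to -0.60. Within a mouse, Mcm4 minus Mcm7 averaged -2.10 ± 0.57 in restricted livers and -0.71 ± 0.41 in control livers (SD, n = 3 each). This pair was chosen after its values were seen, the ranges did not overlap, and an exact two-sided permutation test gave p = 0.1, the smallest value that 3 mice against 3 allow.

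Of the genes that load the ring or restrain its loading, Cdc6 alone was called. Cdc6, the ATPase that brings the ring to the origin, was not well above background in any restricted liver (-6.31, -6.96 and -6.96) and was well above it in all control livers (-4.58, -4.45 and -4.26). The change is therefore given as a bound, at least 1.41-fold lower, beside group means of -6.75 ± 0.37 and -4.43 ± 0.16 (SD, n = 3, restricted and control) and adjusted p = 0.000798 in limma. This bound sets the control mean against the dimmest signal that counted as above background on the restricted arrays. It holds for the processed signal only, since the difference under normexp was -0.33. A second Cdc6 probe was well above background in 1 of 3 control livers and in 0 of 3 restricted livers, its ranges overlapped, and it was not tested. Cdt1, the partner of Cdc6 in loading, had -0.34, 0.35 and -0.37 in restricted livers, against 0.29, 0.65 and 0.47 in control livers. Restricted mouse 2 lay within the control range, and the difference of -0.59 did not pass the test (adjusted p = 0.119, limma). Without that mouse Cdt1 was called lower, at -0.82. Gmnn, which encodes geminin, the inhibitor of Cdt1, had -0.96, -0.39 and -0.55 in restricted livers, against -1.39, -1.41 and -1.07 in control livers. All 3 restricted values were above the controls, and the difference of 0.66 missed the threshold (adjusted p = 0.0592, limma). Gmnn was called higher in 7 of 17 alternatives, among them quantile normalization, normexp and median scaling. These also included the fits without control mouse 3, at 0.77, and without restricted mouse 1, at 0.82. Orc1, a subunit of the origin recognition complex, was not well above background on any array and was not tested.

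**Figure D2:**
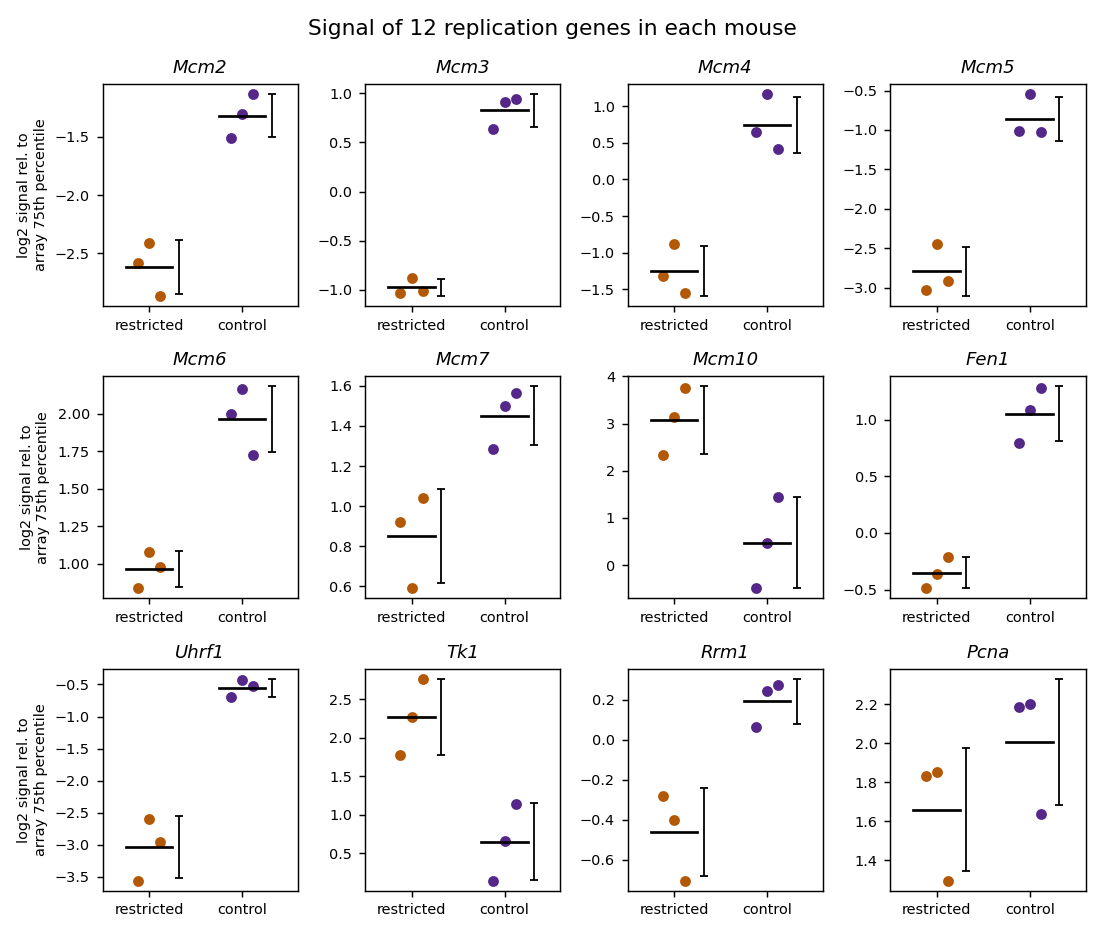
Vertical axes give log2 signal, with 0 at the 75th percentile of the array, for 12 members; points are single mice, restricted left of control, lines are group means and error bars the SD. Mcm3, Mcm4, Mcm5, Fen1 and Uhrf1 lie lower in every restricted mouse than in any control mouse, and Mcm10 and Tk1 lie higher.

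Of 7 firing genes tested, 1 was called lower (14.3%, background 12.8%) and 2 higher (28.6%, background 14.6%), with a median of -0.12. Mcm10, a helicase activator that despite its name is no subunit of the ring, had 2.33, 3.14 and 3.76 in restricted livers, against -0.49, 0.48 and 1.44 in control livers. It was 6.06-fold higher (difference 2.60, SE 0.54, adjusted p = 0.0133, limma; probe chr2:4911785-4911844, mm9), the largest difference of any member above 0. Values spread widely within both diets (SD 0.72 restricted, 0.97 control), but the ranges did not meet. On slide 1 alone the difference was 1.85, and it no longer passed (adjusted p = 0.176, limma). Mcm10 minus Mcm3 within a mouse averaged 4.05 ± 0.71 in restricted livers and -0.35 ± 0.82 in control livers, again a pair chosen after its values were seen. Since Mcm10 was higher and Mcm3 lower in every restricted mouse, its ranges had to lie apart. The exact permutation p = 0.1 (two-sided, the smallest possible) was thus fixed by that choice and adds no support.

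Gins4, a subunit of the GINS complex of the helicase, had 0.35, 0.38 and 0.09 in restricted livers, against -0.31, -0.29 and -0.84 in control livers. It was called higher (difference 0.75, SE 0.21, adjusted p = 0.0388, limma), but the call was lost without any one of the 6 mice, when differences ran from 0.57 to 0.85. The other GINS subunits were not called. Gins2 had -4.22, -4.28 and -4.71 in restricted livers, against -3.12, -3.32 and -4.09 in control livers (difference -0.90, adjusted p = 0.0597, limma), and was called lower without control mouse 3, at -1.19. Gins1 had -0.53, -0.60 and -0.79 in restricted livers, against -0.61, -0.75 and -0.22 in control livers (difference -0.12, 95% interval -0.59 to 0.35). Gins3 had 2.62, 2.85 and 2.29 in restricted livers, against 3.08, 3.20 and 2.41 in control livers (difference -0.31, 95% interval -0.94 to 0.32). The difference of Gins1 turned positive without control mouse 3 (0.0356).

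Dbf4, the activating subunit of the Cdc7 kinase, had -3.61, -3.64 and -3.45 in restricted livers, against -2.48, -2.62 and -2.96 in control livers, and was 1.84-fold lower (difference -0.88, SE 0.19, adjusted p = 0.0145, limma). The call was lost without control mouse 1 (-0.78), control mouse 2 (-0.84) or restricted mouse 2 (-0.84). Its catalytic partner Cdc7 was not well above background on any array, with either of its probes, and was not tested. Cdc45, the third part of the active helicase, had -2.70, -3.16 and -3.05 in restricted livers, against -3.62, -3.61 and -3.34 in control livers. The restricted values were all above the controls, and the difference of 0.55 did not pass (adjusted p = 0.0749, limma). Cdc45 was called higher with quantile normalization and with array weights.

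Of 9 polymerase genes, 3 were called lower (33.3%, background 12.8%) and 1 higher (11.1%, background 14.6%), with a median of -0.60. Pole2, the second subunit of the leading-strand polymerase epsilon, was not well above background in any restricted liver (-7.14, -6.76 and -6.95) and was so in all control livers (-3.95, -4.47 and -4.56). It was at least 1.52-fold lower, with measured means of -6.95 ± 0.19 in restricted livers and -4.33 ± 0.33 in control livers (SD, n = 3 each, adjusted p = 0.000501 in limma). This bound too holds for the processed signal only, since the difference under normexp was -0.33. The catalytic subunit Pole had -1.56, -1.19 and -1.11 in restricted livers, against -0.92, -0.71 and -0.65 in control livers. Its ranges were apart as well, though the difference of -0.52 was not called (adjusted p = 0.0852, limma).

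The primase, which lays the RNA primers, was lower in both subunits. Prim1 had -0.92, -0.77 and -1.14 in restricted livers, against -0.31, -0.08 and -0.31 in control livers (difference -0.71, SE 0.18, adjusted p = 0.0263, limma). Prim2 had -2.17, -2.09 and -2.01 in restricted livers, against -1.61, -1.25 and -1.59 in control livers (difference -0.60, SE 0.18, adjusted p = 0.0421, limma). Both calls were lost when any one of control mouse 1, control mouse 2 or the 3 restricted mice was left out. Pola1, the catalytic subunit of the polymerase that extends the primers, had -2.72, -2.33 and -2.43 in restricted livers, against -1.81, -1.50 and -2.16 in control livers; its ranges were apart and the difference of -0.67 was not called (adjusted p = 0.0669, limma), but it was without control mouse 3, at -0.84. Its partner Pola2 had -6.33, -5.38 and -4.37 in restricted livers, against -4.98, -5.23 and -4.93 in control livers, and was above background in only 1 of 3 restricted livers (difference -0.31, adjusted p = 0.649, limma).

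Of the subunits of polymerase delta, the enzyme of the lagging strand, 1 of 3 was called. Pold2, an accessory subunit, had -2.35, -2.01 and -2.29 in restricted livers, against -2.83, -3.10 and -2.74 in control livers, and was 1.59-fold higher (difference 0.67, SE 0.19, adjusted p = 0.0363, limma). That call held without control mouse 3 and was lost without any other single mouse, with differences from 0.57 to 0.74. The catalytic subunit Pold1 had -2.15, -1.08 and -1.03 in restricted livers, against -0.79, -0.36 and 0.38 in control livers. Every restricted value was lower than every control, and the difference of -1.16 (SE 0.41) was not called (adjusted p = 0.0743, limma). Pold3 had 0.13, 0.60 and 0.68 in restricted livers, against 0.87, 0.50 and 1.39 in control livers, which overlap (difference -0.45, 95% interval -1.10 to 0.21).

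The clamp, its loader, the single-strand binding proteins and the enzymes that join Okazaki fragments made up 11 tested genes. Of these, 2 were called lower (18.2%, background 12.8%) and 0 higher (background 14.6%), with a median of -0.10. Fen1, the nuclease that trims the flaps between Okazaki fragments, had -0.48, -0.36 and -0.21 in restricted livers, against 0.79, 1.09 and 1.27 in control livers. It was 2.64-fold lower (difference -1.40, SE 0.19, adjusted p = 0.00259, limma; probe chr19:10273675-10273734, mm9). Lig1, the ligase of the next step, had 0.26, 0.23 and 0.36 in restricted livers, against 0.63, 0.98 and 0.66 in control livers; the values were apart, and the difference of -0.47 was not called (adjusted p = 0.0851, limma).

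Pcna, the sliding clamp, had 1.83, 1.85 and 1.29 in restricted livers, against 2.19, 2.20 and 1.64 in control livers. The ranges overlapped, and the difference of -0.35 had a 95% interval of -0.93 to 0.23 (adjusted p = 0.336, limma). The 5 subunits of the clamp loader replication factor C all had differences close to 0. Rfc1 had a difference of 0.08, Rfc2 of -0.14, Rfc3 of -0.10, Rfc4 of 0.09 and Rfc5 of 0.14, with adjusted p-values in limma from 0.555 to 0.798. Their 95% intervals lay between -0.54 and 0.54, so a change as large as those of Mcm3, Mcm4 or Mcm5 was outside all of them. The signs of Rfc1, Rfc3 and Rfc4 turned in some alternatives.

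The single-strand binding protein RPA was uneven across its subunits. Rpa2 had -2.91, -2.83 and -2.87 in restricted livers, against -2.08, -2.21 and -2.25 in control livers, and was 1.61-fold lower (difference -0.69, SE 0.15, adjusted p = 0.0174, limma). The call was nevertheless lost when any one mouse other than control mouse 3 was left out. Rpa1, the largest subunit, had 2.31, 2.34 and 2.47 in restricted livers, against 1.85, 2.26 and 1.85 in control livers (difference 0.39, adjusted p = 0.164, limma). Its other probe, fitted as a feature of its own, gave 1.11, 1.13 and 0.99 in restricted livers, against 0.32, 0.43 and 0.00 in control livers, and was called higher (difference 0.83, SE 0.18, adjusted p = 0.0161, limma). The probes of Rpa1 thus had the same sign but not the same call. Rpa3, the smallest subunit, had 0.30, 0.80 and 0.76 in restricted livers, against 0.33, 0.22 and 0.56 in control livers (difference 0.25, 95% interval -0.24 to 0.74).

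Of 5 genes of nucleotide supply, 1 was called higher (20%, background 14.6%) and 1 lower (20%, background 12.8%), with a median of 0.18. Tk1, the thymidine kinase of the salvage pathway, had 1.78, 2.27 and 2.76 in restricted livers, against 0.15, 0.67 and 1.15 in control livers. It was 3.07-fold higher (difference 1.62, SE 0.34, adjusted p = 0.0133, limma; probe chr11:117676845-117676904, mm9), and on slide 1 alone the difference was 1.13 (adjusted p = 0.181, limma). Rrm1, the large subunit of ribonucleotide reductase, which makes deoxynucleotides, had -0.28, -0.40 and -0.70 in restricted livers, against 0.06, 0.24 and 0.27 in control livers, and was 1.57-fold lower (difference -0.65, SE 0.18, adjusted p = 0.0374, limma). Its call was lost without any one mouse other than restricted mouse 1, with differences from -0.72 to -0.53. Tk1 minus Rrm1 within a mouse averaged 2.73 ± 0.71 in restricted livers and 0.46 ± 0.40 in control livers, a pair also chosen after its values were seen. Since Tk1 was higher and Rrm1 lower in every restricted mouse, the exact permutation p = 0.1 (two-sided, the smallest possible) was fixed by that choice.

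Rrm2, the small subunit of the reductase and the one whose amount follows the cell cycle, had 2.13, -0.17 and -1.05 in restricted livers, against 1.76, 1.32 and 0.39 in control livers. Restricted mouse 1 exceeded every control, while the other restricted mice lay below all of them, and the difference of -0.86 (SE 0.79) was not called (adjusted p = 0.458, limma). Without restricted mouse 1 the difference was -1.77 (adjusted p = 0.0423, limma), and on slide 1 alone, which holds that mouse, it was 0.97. Tyms, which makes thymidylate, had -3.32, -3.22 and -3.48 in restricted livers, against -3.57, -3.41 and -3.67 in control livers (difference 0.21, 95% interval -0.19 to 0.60). Dut, which removes dUTP, had -0.97, -0.80 and -0.74 in restricted livers, against -1.18, -1.02 and -0.87 in control livers (difference 0.18, 95% interval -0.22 to 0.59).

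Both called genes of chromatin and methylation maintenance were lower, out of 4 tested (50%, background 12.8%), with a median of -0.81. Uhrf1, which recognises hemimethylated DNA behind the fork and brings the maintenance methyltransferase to it, had -3.56, -2.60 and -2.95 in restricted livers, against -0.70, -0.42 and -0.53 in control livers. It was 5.59-fold lower (difference -2.48, SE 0.27, adjusted p = 0.00102, limma; probe chr17:56462770-56462829, mm9), and its second probe was not well above background on any array. Dnmt1, that methyltransferase, had -3.27, -2.79 and -2.35 in restricted livers, against -2.16, -2.02 and -2.03 in control livers. Its groups were apart, and the difference of -0.73 was not called (adjusted p = 0.0715, limma), although it was without restricted mouse 3, at -0.96. Chaf1a, the large subunit of the histone chaperone CAF-1, had -2.80, -3.24 and -3.56 in restricted livers, against -2.26, -2.17 and -2.48 in control livers, and was 1.86-fold lower (difference -0.89, SE 0.23, adjusted p = 0.0296, limma). The call ended without control mouse 1 or 2, and without restricted mouse 2 or 3, with differences from -0.87 to -0.71. Chaf1b, the middle subunit, had 1.29, -0.08 and 0.34 in restricted livers, against 0.86, 0.84 and 0.75 in control livers (difference -0.30, adjusted p = 0.55, limma). As for Rrm2, restricted mouse 1 was above all controls and the other restricted mice below them, and the second Chaf1b probe showed the same order.

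**Figure D3:**
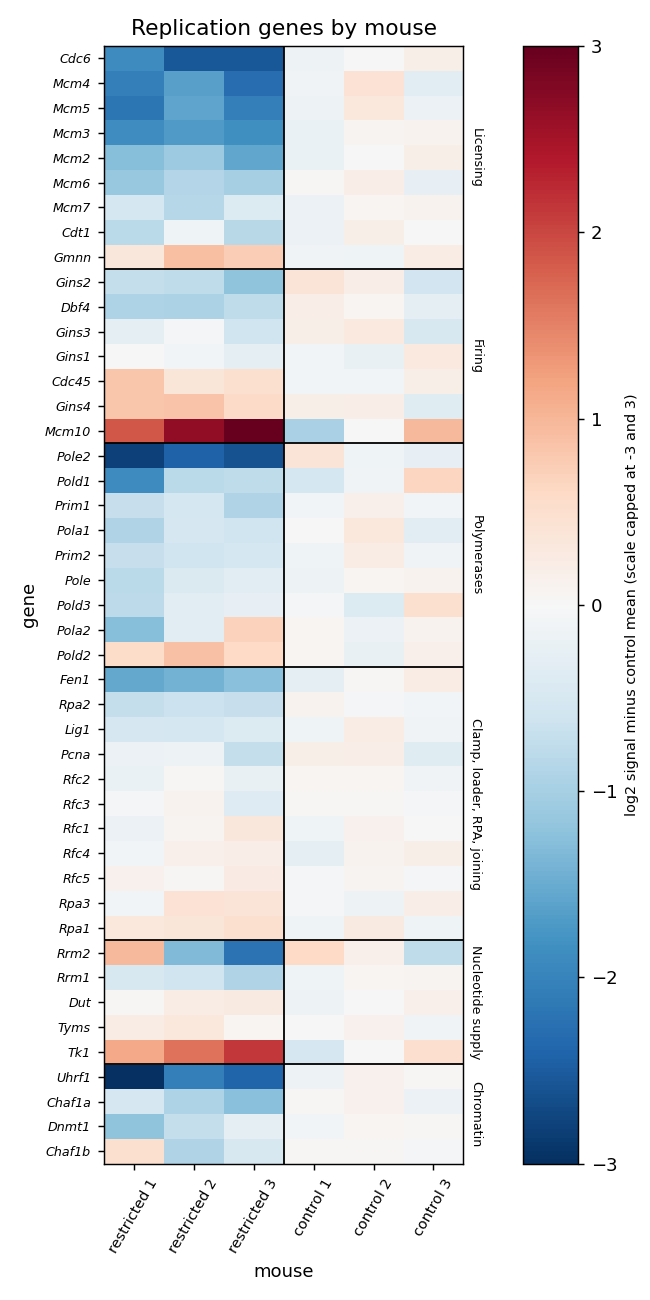
Rows are the tested members by role and columns are the mice, restricted left of control; colour is the log2 signal minus the member's control mean, capped at -3 and 3. The Mcm2 to Mcm7 rows and Cdc6 are low in all 3 restricted mice, while Mcm10, Tk1, Gins4 and Pold2 are high, and Rrm2 and Chaf1b are high in restricted mouse 1 alone among the restricted mice.

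The genes around the machinery were taken from lists beyond the members. Of 30 tested other replication and fork genes, 6 were called lower (20%, background 12.8%) and 1 higher (3.33%, background 14.6%), with a median of -0.25. Among the 26 that were well above background on every array, 3 were lower and 1 higher, with a median of -0.06. Of all 17742 features above background in this way, 1790 were lower and 2658 higher. Ticrr, which acts with the firing kinases, was at least 3.45-fold lower (adjusted p = 0.000247, limma) and Dscc1, of the alternative clamp loader, at least 1.63-fold lower (adjusted p = 0.00186, limma), and neither was well above background in a restricted liver. Chtf18, another subunit of that loader, had -4.78, -4.06 and -3.65 in restricted livers, against -2.51, -2.07 and -1.79 in control livers (difference -2.04, SE 0.33, adjusted p = 0.00481, limma). Rnaseh2c, a subunit of the nuclease that removes ribonucleotides from DNA, was the one called higher (difference 0.82, SE 0.24, adjusted p = 0.0438, limma).

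Among 17 further genes of nucleotide supply 3 were called lower (17.6%, background 12.8%) and 4 higher (23.5%, background 14.6%), with a median of 0.41. Shmt1 and Mthfd1, enzymes of the folate cycle that feeds thymidylate synthesis, were higher by 1.65 (SE 0.22, adjusted p = 0.00248, limma) and 1.36 (SE 0.21, adjusted p = 0.00437, limma). Samhd1, which degrades deoxynucleotides, had -0.13, 0.62 and 0.51 in restricted livers, against 2.57, 2.90 and 2.40 in control livers (difference -2.29, SE 0.26, adjusted p = 0.0012, limma). Dck, a deoxynucleoside kinase (difference -1.11, adjusted p = 0.0203, limma), and Ctps, CTP synthase (difference -0.97, adjusted p = 0.0135, limma), were also lower. Of 9 tested genes of replication-coupled chromatin, Hmgb2 (-1.83), Asf1b (-1.86) and Hells (-1.15) were called lower (33.3%, background 12.8%) and 0 higher (background 14.6%). Hells was above background in 1 of 3 restricted livers.

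The regulators of entry into S phase gave 4 lower (21.1%, background 12.8%) and 1 higher (5.26%, background 14.6%) of 19 tested, with a median of -0.29. Ccna2, the cyclin of S phase and G2, had -3.05, -2.59 and -2.89 in restricted livers, against -0.36, -0.12 and -0.50 in control livers (difference -2.51, SE 0.20, adjusted p = 0.000429, limma). E2f2 was lower, with a difference of -2.21 (adjusted p = 0.00243, limma) and Rbl1, a pocket protein that binds E2F factors, likewise with -1.90 (adjusted p = 0.00222, limma), while Rbl2, its relative, was higher by 0.69 (adjusted p = 0.0205, limma). All 11 tested proliferation markers were called lower, with a median of -2.72, a group chosen with earlier results of these data known. Of these, 8 were well above background on every array, and their median was -2.25. Mki67, the antigen of cycling cells, had -1.70, -0.72 and -1.18 in restricted livers, against 1.43, 1.85 and 1.30 in control livers (difference -2.72, SE 0.29, adjusted p = 0.000984, limma). Plk1, a mitotic kinase, was lower with a difference of -2.78 (SE 0.27, adjusted p = 0.000714, limma), and Bub1, of the spindle checkpoint, was at least 3.70-fold lower.

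**Figure D4:**
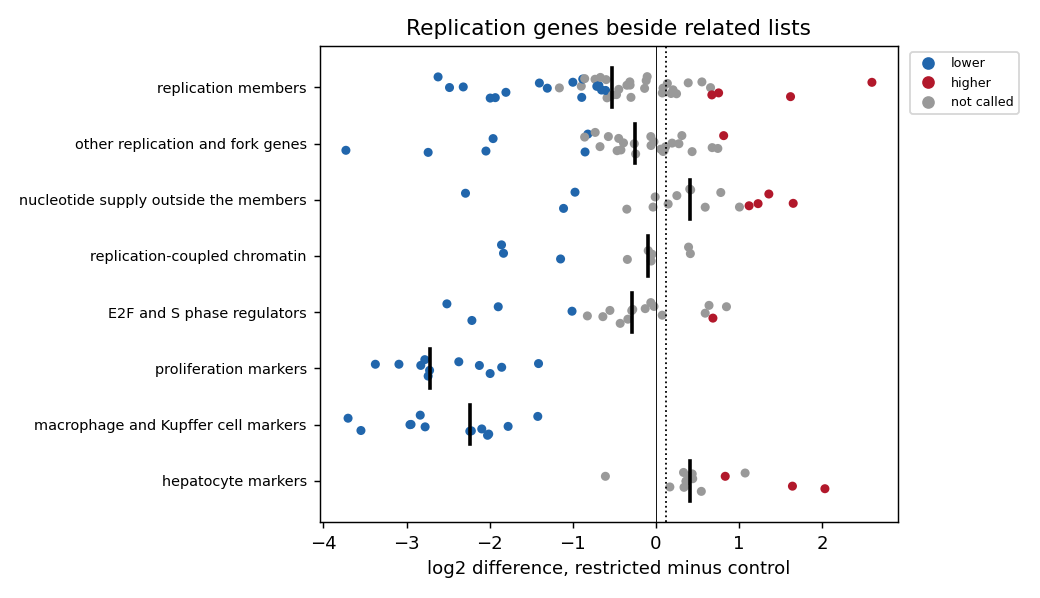
Each point is 1 tested gene of a list (rows), placed by its log2 difference, restricted minus control; the short black bar is the list's median and the dotted line the median of all features, 0.12. Replication members measured above background in both diets span -2.48 to 2.60, and the median of all tested members is -0.52. The proliferation markers are all below 0 with a median of -2.72, or -2.25 over the 8 well above background on every array.

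The tissue is a mixture of cells, and in whole-tissue RNA fewer cells of a type and less RNA per cell cannot be told apart. For comparison with the marker counts below, 12.8% of all features were called lower and 14.6% higher. All 14 hepatocyte markers were well above background on every array, and 0 were called lower and 3 higher. Their summed linear signal, relative to the 75th percentile, was 1653 to 2071 in restricted livers and 1200 to 1624 in control livers, with some probes saturated. All 13 macrophage and Kupffer cell markers were called lower (median -2.24), and their sum was 44.3 to 61.3 in restricted livers and 251 to 327 in control livers. Of 10 stellate cell and fibroblast markers 7 were lower and 0 higher (46.6 to 76.2 restricted, 115 to 150 control), and of 7 bile duct markers 4 were lower and 0 higher (0.988 to 2.22 restricted, 7.98 to 9.10 control). Of 11 neutrophil markers 7 were lower and 1 higher (91.9 to 135 restricted, 153 to 184 control), with a median of -3.88 over all 11 and -1.77 over the 6 that were well above background on every array. Of 10 sinusoidal endothelium markers 0 were lower and 5 higher (42.5 to 56.4 restricted, 24.9 to 37.2 control). Of 10 T and NK cell markers 6 were lower and 0 higher (27.7 to 39.2 restricted, 31.8 to 49.3 control), of 5 B cell and plasma cell markers 2 were lower and 0 higher (1.62 to 2.99 restricted, 3.17 to 3.90 control), and of 6 erythroid markers 1 was lower and 2 higher (24.1 to 44.7 restricted, 21.5 to 38.0 control). Dimmer markers weigh little in such a sum, which follows the brightest genes of its list. Cd4 was the brightest T and NK cell marker (mean 4.67 restricted, 5.03 control) and was not called, while the median difference of that list was -1.12. Csf3r was the brightest neutrophil marker (mean 6.66 restricted, 6.63 control) and was not called either. Cd8a, Cd79a, Pax5 and Gata1 were not well above background and were not tested. Some counts were smaller among markers well above background on every array. Lower were 2 of 5 bile duct, 3 of 6 neutrophil and 4 of 8 T and NK cell markers. Higher were 3 of 8 sinusoidal endothelium markers and 1 of 6 neutrophil markers. Of all 17742 features above background in this way, 1790 were lower and 2658 higher.

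Single markers of these lists varied in size. The macrophage genes Cd5l and Csf1r had differences of -2.09 (adjusted p = 0.000988, limma) and -2.22 (adjusted p = 0.000827, limma), and the bile duct genes Cd24a and Spp1 had -3.82 (adjusted p = 0.000818, limma) and -2.33 (adjusted p = 0.00417, limma). The fibroblast genes Dcn and Col1a2 had -0.87 (adjusted p = 0.0254, limma) and -1.54 (adjusted p = 0.0331, limma). Of the neutrophil genes, S100a9 had 4.03, -0.03 and 0.28 in restricted livers, against 6.13, 5.57 and 4.23 in control livers (adjusted p = 0.0366, limma), while Csf3r, the brightest gene of that list, had a difference of 0.03 (adjusted p = 0.94, limma). The plasma cell gene Jchain had -1.77 (adjusted p = 0.00963, limma), and the erythroid gene Alas2 had 1.30 (adjusted p = 0.0181, limma). Differences that were not called were -0.36 for Cd4, 0.23 for Nkg7, -0.03 for Cd22, 0.13 for Hba-a1, 0.48 for Kdr, -0.20 for Stab2 and 0.44 for Apoh, and Ambp was saturated on all 6 arrays. The part of these cell types in the differences of the replication genes was not tested.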

How the data were processed

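Total liver RNA of 6 mice (3 per diet) was labelled with Cy3 and hybridised to one-colour Agilent arrays. Per the file headers, intensity values were made by Feature Extraction 10.7.3.1 with detrending of both the spatial and the multiplicative kind; version 9.3.2.1 stands in the submitters' processing notes. The processed signal intensity deposited by the authors was used: control spots and outlier-flagged spots (127 to 251 per array) were left out, log2 was taken, spots of a probe were averaged and each array's 75th percentile (signal 287 to 574) was subtracted. Between 23527 and 25816 probes per array were well above background; the number of arrays limits the precision. A probe entered the fit if at least 1 diet had it well above background on every array that measured it, which left 24234 of 39429 probes, and taking the brightest probe on average for each gene name gave 19616 features. RefSeq symbols were taken by accession for 26055 probes, of which 3358 names changed. Probe coordinates are mm9, and promoter windows are GRCm38.p6; they were not converted into each other.

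The diets were compared with limma 3.58.1 in R 4.3.3 (lmFit and eBayes, no covariate, Benjamini-Hochberg adjustment), and the method was tested on simulated data. A probe not well above background in 1 diet has only a bound, which refers to the processed signal. Each array is a separate mouse. Members, lists and rules were chosen with earlier results of these data known: up to 4 called members of each role by smallest p, every member that rose and every measured member not called, 3 called genes per further list with any called against its median, and the promoters of up to 4 members with the smallest p among licensing, firing and nucleotide genes that hold an E2F word. Marker lists are given by count, sum and the 2 brightest genes, and some of their genes are not reported here. Mice that share a number were not treated as pairs, and the labels do not call them pairs. Their deviations from the group means had correlations of 0.384, -0.002 and 0.482, against -0.499 to 0.118 for mice with different numbers. Alternatives covered normalization (quantile, median, and normexp with offset 50 followed by quantile), the deposited value table and the filter on dim probes. They also covered array weights, the mouse number and the slide as blocks, each probe alone and each mouse left out. Slide 1 alone was added after the values were seen.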

Additional observations from a re-analysis of the deposited data

How the results depend on the processing

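Across 17 alternatives none of the 19 called members changed sign. For each of them, all restricted mice lay on the same side of all controls. Leaving out 1 mouse, weighting the arrays or using slide 1 alone therefore could not turn the sign. The mouse number as a block and each probe alone gave the main differences, and the slide as a block those of slide 1 alone. In these alternatives the sign was fixed in advance and adds no support. The call was kept by 7 members in each alternative that gave a value. Of these, Cdc6 and Pole2 gave none when all 6 arrays had to be above background, and both had -0.33 under normexp. Quantile normalization gave 14 members lower and 6 higher, normexp 15 and 5, array weights 21 and 6, and the mouse number as a replicate block 20 and 5, of which polymerases were 7. Calls over all features were 5386 in the main fit, 5565 with quantile normalization and 5192 with normexp. They were 8368 with array weights and 6623 with the mouse number as a block, and ran from 3344 to 5818 with 1 mouse left out. Gins2, Pola1 and Dnmt1 gained a lower call with array weights and with the mouse number as a block. Pole gained it with these and with normexp, and Lig1 with normexp and array weights. Pold1 gained it with the mouse number and with the slide as blocks, and Dnmt1 also with the slide. Called either way, chromatin genes were 1 with quantile normalization, normexp, median scaling, no background filter and slide 1 alone. Median scaling gave 2 polymerases and 1 nucleotide gene. No background filter gave 2 members higher, 2 polymerases and 1 nucleotide gene. Requiring all 6 arrays gave 4 other fork genes, and array weights gave 5 firing genes. The slide as a block gave 0 members higher, 0 firing genes, 2 polymerases, 1 clamp gene, 0 nucleotide genes and 4 further nucleotide genes. Slide 1 alone gave 7 members lower and 0 higher, 0 firing genes, 1 polymerase, 1 clamp gene, 0 nucleotide genes, 3 further nucleotide genes and 3 S phase regulators. Leaving out 1 mouse gave 9 to 16 members lower and 2 to 4 higher, 6 to 7 licensing, 1 to 3 firing, 1 to 5 polymerase, 1 to 2 clamp, 1 to 3 nucleotide and 1 to 2 chromatin genes, 4 to 9 other fork genes, 5 to 7 further nucleotide genes, 2 to 3 replication-coupled chromatin genes, 4 to 7 S phase regulators and 11 proliferation markers throughout. The sign turned for 8 members, none of them called: Rfc1 at -0.0265 (quantile), Pola2 at 0.0127 (normexp), Gins1 at 0.0356 (array weights), and with the slide as a block and slide 1 alone Rfc1 at -0.17, Rfc4 at -0.0849, Rpa3 at -0.0728, Rrm2 at 0.97 and Chaf1b at 0.48. Leaving out 1 mouse gave -0.0491 to 0.2033 for Rfc1, -0.2152 to 0.0319 for Rfc3, -0.0499 to 0.1736 for Rfc4, -0.8098 to 0.1734 for Pola2 and -0.2268 to 0.0356 for Gins1. The deviations of mice with the same number had correlations of 0.384, -0.002 and 0.482. Those of mice with different numbers ran from -0.499 to 0.118, and the labels do not say what a shared number means. The cause of these changes was not tested. Signal near background limits Cdc6, Pole2, Pola2, Orc1 and Cdc7.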

Other observations

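The genes that lie next to members called higher were looked up after the members' values were seen, in the RefSeq order of genes. Afmid, the neighbour of Tk1, had 2.15, 2.38 and 2.50 in restricted livers, against -0.52, -0.28 and -0.34 in control livers, a difference of 2.73 (SE 0.18, adjusted p = 0.000332, limma). Birc5, the next gene beyond Afmid, which encodes survivin, was lower instead (difference -1.99, SE 0.29, adjusted p = 0.00328, limma), and Syngr2, on the other side of Tk1, had -0.21 (adjusted p = 0.427, limma). Gpat4, beside Gins4, was higher by 1.22 (SE 0.28, adjusted p = 0.0191, limma), while Golga7 on its other side had 0.15 (adjusted p = 0.523, limma). Optn, beside Mcm10, had 0.73 and missed the threshold (adjusted p = 0.0517, limma). Aebp1, beside Pold2, had -0.60 (adjusted p = 0.273, limma).

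Mcm10 and Tk1 were the members with the largest differences above 0. Their within-mouse difference, Mcm10 minus Tk1, averaged 0.80 ± 0.23 in restricted livers and -0.18 ± 0.47 in control livers (SD, n = 3 each), a pair chosen after its values were seen (exact permutation p = 0.1, two-sided, the smallest possible).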
